A study of Homo sapiens with 20 samples.

Results

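The genes described here are 36 components of the protein folding and quality control machinery of the endoplasmic reticulum (ER) and of the unfolded protein response: ER chaperones, disulfide isomerases, factors of ER-associated degradation (ERAD), stress sensors and subunits of the translocation channel. They were listed by gene symbol for their roles, and 33 of the 36 were measured, each by 1 transcript cluster (the array's unit for a gene) of the 21448 tested. HSP90B1, PDIA5 and SEC61G carried no cluster under these symbols in the annotation used and were not analysed here. The cells were BE(2)-C, a clonal human neuroblastoma line with MYCN amplification, and all had been transfected 48 h earlier, either with control siRNA or with one of a pair of siRNAs (siRNA-1 and siRNA-2) that target lncNB1, a long noncoding RNA. All cells received cycloheximide, which holds ribosomes on mRNA, and lysates were separated on sucrose gradients into light polysomes (mRNAs with few ribosomes) and heavy polysomes (mRNAs with many). Clariom S arrays measured the RNA of each fraction, with 4 light and 4 heavy arrays for control siRNA (replicates 1 to 4), 3 and 3 for siRNA-1 (replicates 1, 2 and 4) and 3 and 3 for siRNA-2 (replicates 1 to 3). The study describes the polysome arrays as repeated experiments, while the sample labels give only a replicate number and do not tie the numbers to separate cultures. The level of lncNB1 itself was not analysed here.

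Proteins that enter the ER are folded there by the HSP70-type chaperone HSPA5 (BiP) with its DNAJ cochaperones, by the lectin chaperones CALR and CANX, which hold glycoproteins, and by disulfide isomerases. Proteins that fail to fold are taken back to the cytosol and degraded by ERAD. When unfolded proteins build up, the membrane sensors ERN1 (IRE1), EIF2AK3 (PERK) and ATF6 are activated: IRE1 splices XBP1 mRNA, PERK phosphorylates the initiation factor eIF2 and lowers general translation, and ATF6 is cleaved to a transcription factor. XBP1 and ATF6 then raise the transcription of chaperone and ERAD genes, many through a promoter sequence called the ER stress element. Most of these genes encode ER-resident or membrane proteins, whose mRNAs are translated on ribosomes at the ER membrane. The lysis buffer held detergents, which release polysomes bound to membrane.

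The promoters are shown first, because the ER stress element (CCAAT, any 9 bases, then CCACG) is the sequence through which this response is known to act. RefSeq promoters (GRCh38.p14, 250 bases before to 50 after the start) matched 33 of the 36 genes, measured or not, all but PDIA3, DERL1 and DERL3. The exact element, searched on both strands, was present in 6 of the 33 (18.2%), against 27 of 35116 promoters of the same length (0.0769%). Those 6 were HSPA5, HSP90B1, CALR, CANX, CRELD2 and XBP1. Stretches of 43 bases around it follow for the measured genes, read 5′ to 3′ on the strand that carries the element, with its fixed bases in capitals. The strand was the minus strand of chr9:125241379-125241421 for HSPA5, the minus strand of chr19:12938372-12938414 for CALR, the plus strand of chr5:179698766-179698808 for CANX, the minus strand of chr22:49918542-49918584 for CRELD2 and the minus strand of chr22:28800591-28800633 for XBP1.
HSPA5: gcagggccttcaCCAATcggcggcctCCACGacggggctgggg
CALR: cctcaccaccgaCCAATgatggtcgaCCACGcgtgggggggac
CANX: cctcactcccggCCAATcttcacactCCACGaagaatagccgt
CRELD2: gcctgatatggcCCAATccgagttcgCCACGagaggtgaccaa
XBP1: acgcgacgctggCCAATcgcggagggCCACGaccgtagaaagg

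The elements were centred between positions -43 (XBP1) and -216 (CALR) from the start. CCACG alone, the last part of the element, stood in 24 of the 33 promoters (72.7%) against 38.1% of all promoters, and CCAAT, its first part, in 27 (81.8%) against 34.6%. TGACGTG, a sequence bound by XBP1 and ATF6, stood in 2 (6.06%, DNAJC10 and HYOU1) against 1.97%, and TGATGNAA, a sequence bound by ATF4 with C/EBP partners, in 1 (3.03%, HERPUD1) against 3.62%. These are matches of letters only. Of the 5 measured genes with the exact element, HSPA5, CALR, CANX and CRELD2 were higher in heavy than in light polysomes in control cells. So were 17 of all 33 measured genes and 14.5% of all clusters. XBP1 did not pass the test, as described next. A link between the element and the polysome fraction was not tested.

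The first comparison asked which of the mRNAs were held by many ribosomes and which by few. Values are log2 units of the robust multi-array average (RMA), in which every array is scaled to a common distribution, so a difference between fractions is set against all other mRNAs of that fraction and does not measure the total amount of polysomal RNA. In cells with control siRNA, 17 of the 33 genes were higher in heavy than in light polysomes and 2 were lower (limma on heavy minus light per transfection, adjusted p under 0.05). Over all clusters 27.3% passed, 14.5% higher and 12.8% lower. The median difference of the 33 genes was 0.37, against -0.02 over all clusters. With siRNA-1, 18 were higher and 2 lower, where 28.2% of all clusters passed, and with siRNA-2 17 were higher and 2 lower, where 22% of all clusters passed. The median differences were 0.52 and 0.60. Under each of the 3 siRNAs, 16 genes were higher and SEC61B was lower. Among those 16, the call of SEL1L was lost without siRNA-1 replicate 2 (adjusted p = 0.0648) or siRNA-2 replicate 3 (0.0591), that of SSR2 without siRNA-2 replicate 2 (0.0513), and those of CANX and MANF as given with their values. In 17 genes the difference was positive in all 10 transfections, as in 14.1% of all clusters, and in 2 genes, EDEM2 and SEC61B, it was negative in all 10, as in 10.4%.

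Replicate 1 separated the fractions less. Across all clusters, heavy minus light regressed on the mean of the other transfections had a slope of 0.527, 0.585 and 0.727 for replicate 1 of control, siRNA-1 and siRNA-2, and of 0.900 to 1.38 for the other 7 transfections. For HSPA5 the difference in control cells was 0.26 in replicate 1 and 0.75, 1.02 and 0.94 in replicates 2 to 4. Without replicate 1 in any group, 19, 19 and 20 of the 33 genes passed with control siRNA, siRNA-1 and siRNA-2, where 28.9%, 26.3% and 20.9% of all clusters passed.

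**Figure D1:**
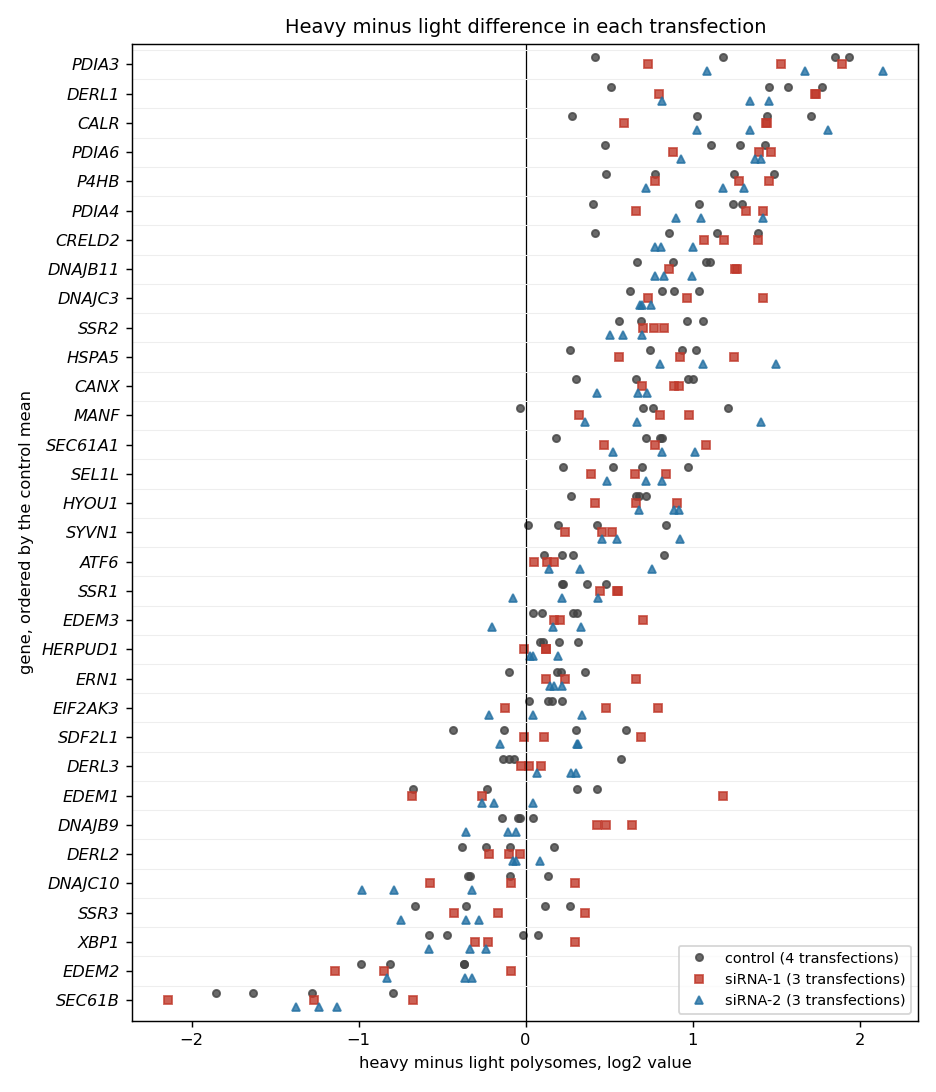
Heavy minus light log2 difference of each of the 33 genes (rows, ordered by the control mean) in each of the 10 transfections, with 4 points for control siRNA, 3 for siRNA-1 and 3 for siRNA-2. PDIA3, DERL1 and CALR lie at the top, above 0 in every transfection, and SEC61B and EDEM2 at the bottom, below 0 in every transfection.

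Among the disulfide isomerases, all 4 measured members, PDIA3, PDIA4, PDIA6 and P4HB, were higher in heavy polysomes, by 1.00 to 1.35 on the log2 scale in control cells. PDIA3 (ERp57), which works with CALR and CANX on glycoproteins, measured 10.20, 10.30, 11.05 and 10.78 in the heavy arrays of control replicates 1 to 4 and 9.78, 9.12, 9.11 and 8.92 in the light arrays. All 4 heavy values lay above all 4 light values, and the mean difference was 1.35 (2.55-fold, SE 0.237, limma adjusted p = 0.00073). It was 1.39 with siRNA-1 and 1.63 with siRNA-2. PDIA6, which also acts on the IRE1 sensor, measured 10.999, 11.12, 11.43 and 11.26 in control heavy arrays and 10.52, 10.01, 10.15 and 9.83 in control light arrays, again without overlap, and differed by 1.08 (SE 0.156, limma adjusted p = 0.00019). PDIA4 and P4HB, the catalytic isomerase that is also a subunit of prolyl hydroxylase, each differed by 1.00 (SE 0.162 and 0.165).

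Both lectin chaperones were higher in heavy polysomes with each siRNA. CALR, a soluble calcium-binding chaperone, measured 11.37, 11.53, 12.10 and 11.79 in control heavy arrays and 11.09, 10.505, 10.39 and 10.35 in control light arrays. The groups did not overlap, although the light array of replicate 1 lay within 0.28 of its heavy partner, and the mean difference was 1.11 (SE 0.207, limma adjusted p = 0.00105). Its membrane-bound relative CANX differed by 0.73 (SE 0.127). Its call with siRNA-2 was lost without siRNA-2 replicate 2 (adjusted p = 0.0677) or 3 (0.0765).

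Members of the HSP70 system were divided. HSPA5 (0.74), its nucleotide exchange factor HYOU1 (0.58) and the cochaperones DNAJB11 (0.93) and DNAJC3 (0.84) were higher in heavy polysomes of control cells, and also with both siRNAs. DNAJB9 (-0.05), a cochaperone that also represses IRE1, DNAJC10 (-0.16), a reductase that assists ERAD, and SDF2L1 (0.09), a partner of DNAJB11, did not pass. DNAJB9 was higher in heavy polysomes with siRNA-1 (0.52, SE 0.120, limma adjusted p = 0.00516), and DNAJC10 was lower with siRNA-2 (-0.70, SE 0.172, adjusted p = 0.00935), a call that was lost without siRNA-2 replicate 2 (adjusted p = 0.112) or 3 (0.0756). The small secreted proteins CRELD2 (0.95) and MANF (0.66), which are induced by ER stress, were higher in heavy polysomes with each siRNA. For MANF the control call was lost without control replicate 2 (adjusted p = 0.126) or 4 (0.0721), and its difference in control replicate 3 was -0.03. Its other calls were lost without siRNA-1 replicate 1 (adjusted p = 0.142) or 2 (0.128), and without siRNA-2 replicate 2 (0.216). The control and siRNA-1 calls of MANF were also lost when heavy and light arrays were not paired (0.0522 and 0.0722). They were lost without replicate 1 in any group as well (0.0524 and 0.163).

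Among the 9 ERAD genes, 2 were higher, 1 was lower and 6 did not pass in control cells. DERL1, a membrane protein of the channel that returns proteins to the cytosol, measured 9.80, 10.33, 10.72 and 10.61 in control heavy arrays and 9.29, 8.88, 9.15 and 8.84 in control light arrays. Its values did not overlap and differed by 1.33 (2.51-fold, SE 0.199, limma adjusted p = 0.000234), whereas its paralogs DERL2 (-0.14, 95% interval of the fit -0.38 to 0.11) and DERL3 (0.07, -0.20 to 0.34) did not pass. SEL1L, the adaptor of the ubiquitin ligase SYVN1, was higher by 0.60 (SE 0.130), and SYVN1 itself by 0.37 without passing (adjusted p = 0.0573). It passed with siRNA-2 (0.64), except without siRNA-2 replicate 3 (adjusted p = 0.111). EDEM2, which starts the mannose trimming that marks glycoproteins for degradation, measured 7.63, 7.30, 7.04 and 7.19 in control heavy arrays and 8.003, 7.67, 8.03 and 7.996 in control light arrays. All heavy values lay below all light values, and the mean difference was -0.63 (SE 0.165, limma adjusted p = 0.00936), with the call lost without control replicate 3 (adjusted p = 0.0613) or 4 (0.0600). EDEM1 (-0.04), EDEM3 (0.18) and HERPUD1 (0.18), a ubiquitin-like membrane protein of the same complex, did not pass.

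None of the 4 genes of the signalling arms passed in any of the 3 comparisons of heavy with light: in control cells the differences were 0.36 for ATF6 (adjusted p = 0.0597), 0.17 for ERN1, 0.13 for EIF2AK3 and -0.25 for XBP1. XBP1 measured 9.66, 9.55, 9.18 and 9.30 in control heavy arrays and 9.59, 9.57, 9.76 and 9.77 in control light arrays, so that replicates 1 and 2 were nearly equal in both fractions and replicates 3 and 4 were lower in heavy. The spliced and unspliced forms of XBP1 were not analysed here.

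**Figure D2:**
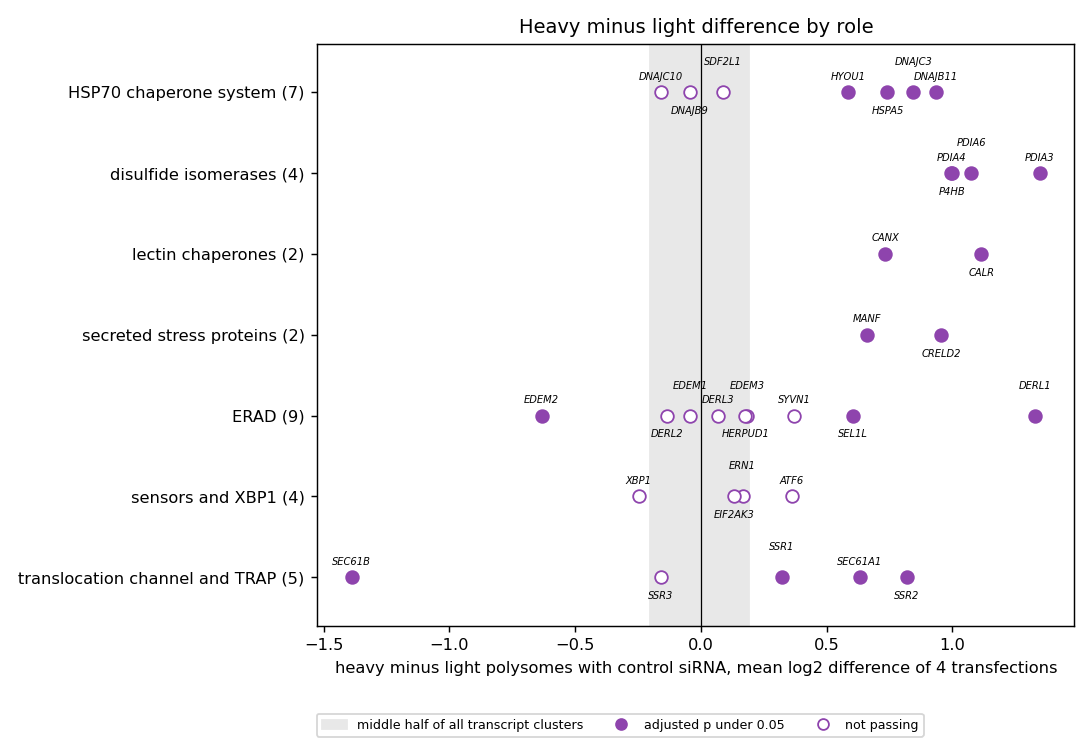
Mean heavy minus light log2 difference in control cells (4 transfections) for the 33 genes, in rows by role with the number measured, filled where the limma adjusted p was under 0.05, over a band that spans the interquartile range of all clusters (-0.20 to 0.19). The disulfide isomerases, lectin chaperones and secreted proteins lie to the right of the band, the sensors close to it, and SEC61B far to the left.

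The translocation genes lay at both ends. SEC61A1, which forms the channel through which new proteins enter the ER, was higher in heavy polysomes (0.63, SE 0.139, adjusted p = 0.00324), while SEC61B, a small tail-anchored subunit of the same channel, measured 9.27, 9.04, 8.71 and 8.68 in control heavy arrays and 10.06, 10.32, 10.34 and 10.53 in control light arrays. SEC61B values did not overlap and its mean difference was -1.39 (2.62-fold lower, SE 0.198, limma adjusted p = 0.00017), the largest in either direction among the 33 genes in control cells. It was -1.36 with siRNA-1 and -1.25 with siRNA-2. Of the translocon-associated protein (TRAP) subunits, SSR2 (0.82) and SSR1 (0.32) were higher. The SSR1 call (adjusted p = 0.0435) was lost without any 1 of the 4 control transfections (adjusted p = 0.0601 to 0.175) and in some other settings. SSR3 measured 11.54, 11.35, 10.885 and 10.885 in control heavy arrays and 11.28, 11.23, 11.55 and 11.24 in control light arrays. Its groups overlapped and the difference of -0.16 did not pass.

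The second comparison asked how each siRNA against lncNB1 changed the level of these mRNAs within a fraction, and whether the siRNAs agreed. In bulk RNA a change in some cells and a smaller change in all cells cannot be told apart. In heavy polysomes, siRNA-1 raised 2 (DNAJB9 and ERN1) and lowered 0, where 8.91% of all clusters passed. In light polysomes siRNA-1 lowered 3 (XBP1, SDF2L1 and DNAJC3) and raised 0, where 11.6% of all clusters passed. Without replicate 1 in any group, 1 and 0 genes passed in these comparisons, where 8.32% and 6.91% of all clusters passed. These shares of the 33 genes, from fits without a replicate block, lay near or below those of all clusters. When the replicate number was added as a block, 8 genes passed with siRNA-1 in heavy polysomes, where 16.3% of all clusters passed. They were DNAJB9, ERN1, CRELD2, SEL1L, SYVN1, SEC61A1 and SSR1, all higher, and XBP1, lower. In light polysomes 2 passed with this block, XBP1 and SDF2L1, where 12.6% of all clusters passed. With siRNA-2 none of the 33 genes passed in either fraction by limma, where 0.415% of all clusters passed in heavy and 0.41% in light. With the replicate number as a block, 1 passed in heavy polysomes, DNAJB9, where 2.75% of all clusters passed, and none in light. Without the block 2 of the 33 had an unadjusted p under 0.05 in heavy polysomes and 5 in light. Of the 21448 clusters, 1852 had such a p in heavy polysomes and 2102 in light. The median change of the 33 genes lay between -0.03 and 0.04 in these 4 comparisons.

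**Figure D3:**
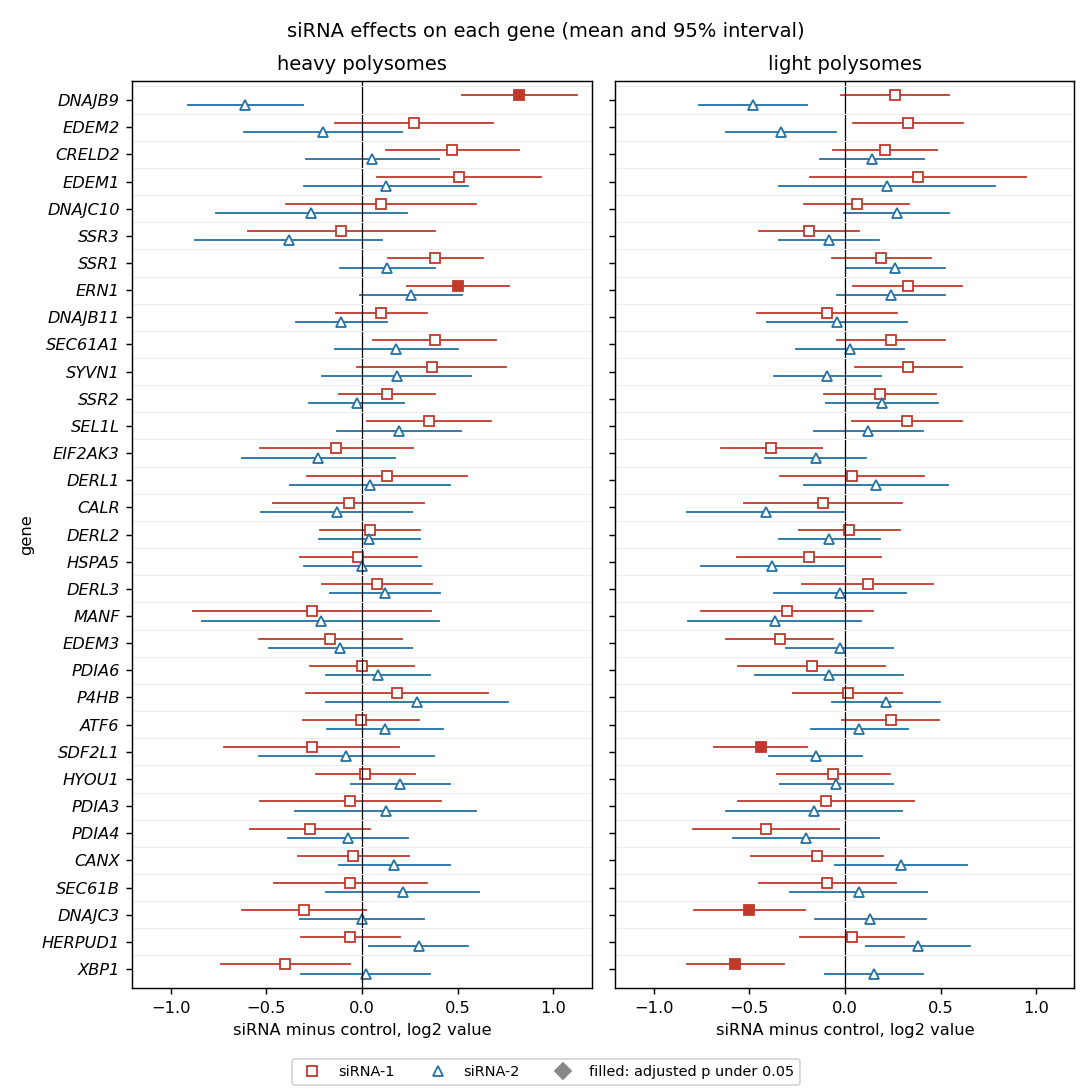
Change in log2 value with siRNA-1 and siRNA-2 against control (mean and 95% interval of the limma fit, n = 3 against 4 arrays) for the 33 genes in heavy (left) and light (right) polysomes, filled where the adjusted p was under 0.05. DNAJB9 stands out in the top row, with siRNA-1 at 0.82 and siRNA-2 at -0.61 in heavy polysomes, and XBP1 in the bottom row, with siRNA-1 at -0.57 in light polysomes.

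DNAJB9 differed most between the siRNAs. In heavy polysomes it measured 8.88, 9.01, 8.70 and 8.50 in control replicates 1 to 4. It measured 9.70, 9.63 and 9.46 with siRNA-1 and 8.33, 8.10 and 8.05 with siRNA-2. All siRNA-1 arrays lay above and all siRNA-2 arrays below the control arrays. With siRNA-1 it rose by 0.82 (1.77-fold, SE 0.140, limma adjusted p = 0.00285), and the call held without any single array. With siRNA-2 the difference from control was -0.61 (SE 0.140, limma adjusted p = 0.0900), which did not pass. Same-numbered control and siRNA-2 heavy arrays deviated together, and with the replicate number as a block the difference was -0.68 and passed (adjusted p = 0.011). In light polysomes DNAJB9 measured 8.84, 9.04, 8.75 and 8.64 in control arrays, 9.27, 8.99 and 8.97 with siRNA-1 and 8.39, 8.20 and 8.41 with siRNA-2. The siRNA-2 arrays again lay below all control arrays (difference -0.48, SE 0.132, adjusted p = 0.164), and the siRNA-1 arrays overlapped them (0.26). The difference between the siRNAs was tested directly: siRNA-1 was higher by 1.43 in heavy polysomes (2.70-fold, SE 0.149, limma adjusted p = 0.000151) and by 0.75 in light polysomes (SE 0.141, adjusted p = 0.00278).

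ERN1, which encodes the sensor IRE1, rose with siRNA-1 in heavy polysomes. It measured 6.0, 5.88, 5.89 and 6.12 in control heavy arrays, 6.63, 6.46 and 6.34 with siRNA-1 and 6.36, 6.07 and 6.26 with siRNA-2. The siRNA-1 arrays all lay above control (0.50, SE 0.123, limma adjusted p = 0.0218), and the siRNA-2 arrays overlapped control (0.26, adjusted p = 0.607). The siRNA-1 call was lost without siRNA-1 replicate 1 (adjusted p = 0.0735) or 2 (0.0764), or without control replicate 2 (0.0642) or 3 (0.0564). Leaving replicate 1 out of every group also removed the call (0.0933). In light polysomes ERN1 differed by 0.33 with siRNA-1 (adjusted p = 0.140).

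XBP1, whose spliced product is the transcription factor of the IRE1 arm, fell by 0.57 with siRNA-1 in light polysomes (SE 0.120, limma adjusted p = 0.00547). It measured 9.59, 9.57, 9.76 and 9.77 in control light arrays, 8.999, 9.03 and 9.27 with siRNA-1 and 9.76, 9.90 and 9.82 with siRNA-2. The siRNA-1 arrays lay below all control arrays and the siRNA-2 arrays overlapped them. In heavy polysomes XBP1 measured 9.30, 8.80 and 8.97 with siRNA-1, partly within the control range of 9.18 to 9.66, and the difference of -0.40 did not pass (adjusted p = 0.151). This heavy difference passed in limma with a replicate block (-0.47, adjusted p = 0.0213) or array weights (-0.48, 0.0450). Without replicate 1 in any group the light call was lost (adjusted p = 0.0501), while no single array removed it. Against siRNA-2, XBP1 was lower with siRNA-1 in light polysomes (log2 difference -0.73, SE 0.128, adjusted p = 0.00165). In heavy polysomes it passed against siRNA-2 only with a replicate block (-0.47, limma adjusted p = 0.0384) or array weights (-0.57, 0.0148).

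The cochaperones DNAJC3, which also inhibits PERK, and SDF2L1 fell with siRNA-1 in light polysomes. DNAJC3 measured 7.17, 6.82, 7.25 and 7.05 in control light arrays, 6.67, 6.70 and 6.36 with siRNA-1 and 7.07, 7.28 and 7.27 with siRNA-2. All siRNA-1 arrays lay below control (-0.50, SE 0.137, limma adjusted p = 0.0270), and siRNA-1 was also below siRNA-2 (-0.63, SE 0.147, adjusted p = 0.01005). The call against control was lost without control replicate 1 (adjusted p = 0.0681), 3 (0.0690) or 4 (0.0553) or siRNA-1 replicate 4 (0.125). A replicate block (0.0542) and leaving replicate 1 out of every group (0.106) also removed it. SDF2L1 measured 8.12, 8.11, 8.35 and 8.11 in control light arrays, 7.75, 7.71 and 7.74 with siRNA-1 and 7.99, 7.97 and 8.10 with siRNA-2. It fell by 0.44 with siRNA-1 (SE 0.114, limma adjusted p = 0.0201), a call lost without control replicate 3 (adjusted p = 0.0532), the highest control array, or without siRNA-1 replicate 2 (0.0677) or 4 (0.0507). The SDF2L1 call was also lost in 1 fit of all 20 arrays (0.118) and without replicate 1 in any group (0.0913). In heavy polysomes the siRNA-1 differences were -0.30 for DNAJC3 and -0.26 for SDF2L1, and neither passed.

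**Figure D4:**
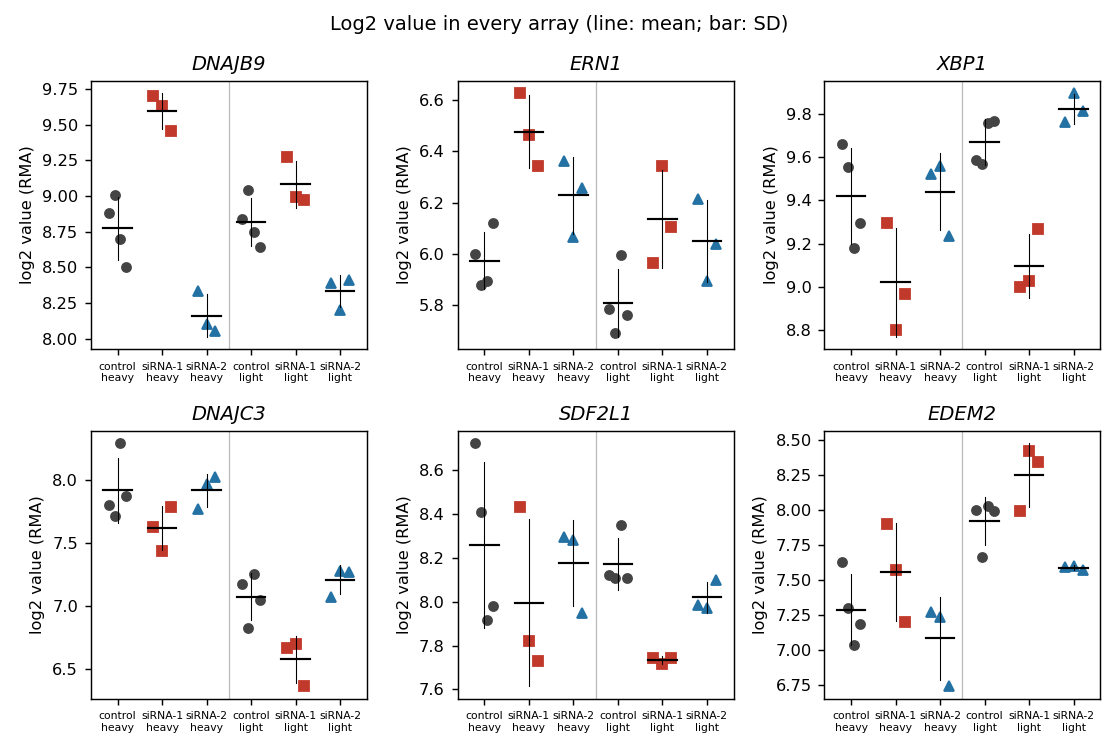
RMA log2 value in every array for DNAJB9, ERN1, XBP1, DNAJC3, SDF2L1 and EDEM2, by siRNA and fraction (n = 4 control, 3 siRNA-1 and 3 siRNA-2 arrays per fraction), with the group mean as a line and the SD as a bar. For DNAJB9 the 3 siRNA-1 heavy arrays lie above and the 3 siRNA-2 heavy arrays below the 4 control arrays, and for XBP1 the 3 siRNA-1 light arrays lie below all other light arrays.

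Between the siRNAs, 1 of the 33 genes differed in heavy polysomes, DNAJB9, where 8.75% of all clusters passed, and 4 differed in light polysomes, where 12.3% passed. In light polysomes DNAJB9 and EDEM2 were higher and XBP1 and DNAJC3 lower with siRNA-1. EDEM2 measured 7.99, 8.42 and 8.345 with siRNA-1 and 7.59, 7.60 and 7.57 with siRNA-2 in light polysomes, and 8.003, 7.67, 8.03 and 7.996 in control arrays. The control arrays overlapped those of siRNA-1 and lay above those of siRNA-2. The siRNA groups did not overlap and differed by 0.66 (SE 0.145, limma adjusted p = 0.00698), although neither siRNA passed against control, with 0.33 (adjusted p = 0.146) for siRNA-1 and -0.33 (adjusted p = 0.416) for siRNA-2. HERPUD1 was the gene with the next smallest p between the siRNAs in heavy polysomes and did not pass (-0.36, adjusted p = 0.115). It had also the second smallest p with siRNA-2 against control in both fractions, at 0.30 in heavy (adjusted p = 0.472) and 0.38 in light (adjusted p = 0.284). All 3 siRNA-2 arrays of HERPUD1 lay above all control arrays in each fraction, as for 4.68% of all clusters in heavy and 5.19% in light.

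The arrays of a siRNA lay wholly above or wholly below the control arrays in 0 to 5 of the 33 genes. With siRNA-1, 5 of the 33 genes lay wholly above control in heavy polysomes (DNAJB9, CRELD2, ERN1, SEC61A1 and SSR1) against 9.88% of all clusters, and 0 lay wholly below against 7.6%. In light polysomes ATF6 lay wholly above, against 9.5%, and DNAJC3, SDF2L1, EDEM3, XBP1 and EIF2AK3 wholly below, against 11% of all clusters. With siRNA-2, HERPUD1 lay wholly above control in heavy polysomes, and DNAJC10 and HERPUD1 in light. DNAJB9 and DNAJB11 lay wholly below control in heavy polysomes, against 5.06%, and HSPA5, DNAJB9, SDF2L1 and EDEM2 in light polysomes, against 5.56%.

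Of the 16 genes that were higher in heavy polysomes with each siRNA, DNAJC3 alone passed against control with a lncNB1 siRNA in the main fits. The main fits used no replicate block. With the block DNAJC3 did not pass (limma adjusted p = 0.0542). The block instead called CRELD2 (0.50, adjusted p = 0.0370), SEL1L (0.44, 0.0209) and SEC61A1 (0.46, 0.00955) higher with siRNA-1 in heavy polysomes. CRELD2 also passed there without the block in 1 fit of all 20 arrays (0.47, limma adjusted p = 0.0399). HSPA5, the standard marker of the unfolded protein response, differed from control by -0.02 with siRNA-1 in heavy polysomes (95% interval of the fit -0.32 to 0.29) and by 0.00 with siRNA-2 (-0.31 to 0.31). In light polysomes it differed by -0.19 with siRNA-1 and -0.38 with siRNA-2 (adjusted p = 0.506). In light polysomes the control array of replicate 1 measured 10.29 and the other 3 control arrays 9.78 to 9.80. The disulfide isomerases differed from control by -0.41 to 0.29 over both siRNAs and fractions, and none passed in the main fits. The extremes were PDIA4 with siRNA-1 in light and P4HB with siRNA-2 in heavy polysomes. PDIA4 with siRNA-1 in light polysomes passed when siRNA-1 light replicate 1 was left out (-0.64, limma adjusted p = 0.0208).

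The third comparison asked whether a siRNA moved an mRNA between light and heavy polysomes, as the change in the heavy minus light difference. None of the 33 genes and no cluster passed with siRNA-1 (0% of all clusters) or with siRNA-2 (0%) by limma, and 1206 and 542 of the 21448 clusters had an unadjusted p under 0.05. The difference of DNAJB9 was 0.04, -0.04, -0.05 and -0.14 in control transfections 1 to 4 and 0.43, 0.64 and 0.48 with siRNA-1. The groups did not overlap, and the shift of 0.56 (SE 0.159) had an unadjusted p of 0.00319 and an adjusted p of 0.714. The next smallest p with siRNA-1 was that of CRELD2 (0.26, 95% interval of the fit -0.20 to 0.72, adjusted p = 0.941). With siRNA-2 the smallest were those of DNAJC10 (-0.54, adjusted p = 1.00) and HSPA5 (0.38, adjusted p = 1.00).

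Related ER and chaperone genes were examined for the same comparisons. In control cells, 20 of 39 other ER folding enzymes were higher in heavy polysomes and 1 lower, led by the prolyl isomerase PPIB (1.47) and the calcium-binding protein CALU (0.95). Of 37 further genes of translocation and N-glycosylation, 14 were higher and 3 lower. The signal recognition particle receptor subunits SRPRA (1.01) and SRPRB (0.98) were among the higher and OST4, a very small subunit of the oligosaccharyltransferase, was the clearest of the lower (-1.29, SE 0.128, limma adjusted p = 1.53e-05). Of 32 other ERAD genes 12 were higher and 4 lower, and of 23 genes of the COPII coat and its cargo and KDEL receptors 12 were higher and 1 lower, with the cargo receptor TMED9 at 1.11. Of 34 cytosolic and mitochondrial chaperones 22 were higher and 2 lower, with a median of 0.57. Of 33 other sensors and genes of the PERK to CHOP arm 6 were higher and 4 lower, with a median of 0.07. The transcription factors ATF4 (-1.48, SE 0.152) and DDIT3 (CHOP, -1.21, SE 0.154), whose mRNAs carry upstream reading frames, were lower in heavy polysomes, while the ER membrane proteins CREB3L2 (1.06) and WFS1 (1.00) were higher. All these counts stand beside the 27.3% of all clusters that passed.

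With siRNA-2, the list of other sensors and genes of the PERK to CHOP arm held 4 of 33 called in each fraction, all higher, where 0.415% of all clusters passed in heavy and 0.41% in light. The lists were chosen with earlier results of these data known, so this count is not independent of them. Whether PERK took part was not tested. The cystine transporter subunit SLC7A11 rose by 2.14 in heavy and 2.15 in light polysomes, CHAC1, which degrades glutathione, by 1.49 in both, ASNS (asparagine synthetase) by 1.46 and 1.65 and DDIT4, an inhibitor of mTOR signalling, by 0.88 and 0.69. The limma adjusted p ranged from 9.8e-07 for SLC7A11 in light to 0.0441 for DDIT4 in light polysomes. With siRNA-1, 2 of the 33 were higher and 1 lower in heavy polysomes, where 8.91% of all clusters passed, and 1 higher in light, where 11.6% passed. SLC7A11 rose by 1.19 in heavy and 0.69 in light. CHAC1 was lower with siRNA-1 than with siRNA-2 in heavy polysomes (log2 difference -1.87, SE 0.136, adjusted p = 1.17e-05), as was ASNS (-1.97). Among the other folding enzymes siRNA-1 raised 4 and lowered 1 of 39 in heavy polysomes (8.91% of all clusters), including SIL1, a nucleotide exchange factor of HSPA5 (0.88, SE 0.137, adjusted p = 0.0018), and the disulfide isomerase TXNDC5 (-0.75, SE 0.131, adjusted p = 0.00325). In the COPII list siRNA-1 lowered SEC31A, an outer coat subunit, in heavy (-0.86) and light (-1.08, SE 0.116, adjusted p = 4.69e-05) polysomes. The prolyl isomerase FKBP7 was lower with siRNA-2 in both fractions (-0.85 and -0.76).

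The cells were checked against markers of noradrenergic neuroblastoma. The mean log2 value of 12 such markers lay between 9.125 and 10.05 in every array, that of 9 mesenchymal markers between 6.53 and 6.90 and that of 3 Schwann cell markers between 5.40 and 6.01. Single markers of the 3 lists overlapped in their mean over all arrays. They ranged from 7.30 (TH) to 12.17 (MYCN) for noradrenergic and from 4.04 (YAP1) to 9.85 (THY1) for mesenchymal markers, with SNAI2 at 9.73. Schwann cell markers ranged from 4.04 (ERBB3) to 7.355 (SOX10). Levels of different probes cannot be ranked. With siRNA-1, 3 of the 12 noradrenergic markers were lower and 0 higher in each fraction, where 8.91% of all clusters passed in heavy and 11.6% in light, and their median change was -0.23 in heavy and -0.25 in light polysomes. In heavy polysomes, where DNAJB9 and ERN1 rose, the noradrenergic mean was 9.53 to 9.83 with siRNA-1 and 9.65 to 10.05 in control arrays. In light polysomes, where XBP1, SDF2L1 and DNAJC3 fell, it was 9.125 to 9.31 with siRNA-1 and 9.415 to 9.55 in control arrays. With siRNA-2 none of the 12 passed in either fraction. The mesenchymal mean was 6.68 to 6.82 with siRNA-1 and 6.72 to 6.90 in control arrays in heavy polysomes, and 6.53 to 6.598 and 6.63 to 6.72 in light, and 0 of its 9 markers passed. The part of these differences in the changes above was not tested.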

How the data were processed

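The authors normalized the Clariom S arrays with the robust multi-array average (RMA) of the oligo package and deposited 1 log2 value per probe set. R 3.5.3 and limma 3.38.3 stand in the submitters' processing notes. Not given in the sources used here are the genome build and whether both fractions were normalized together. In all, 27189 probe sets were listed. The 21448 that name a transcript cluster were tested, 17709 of them with a gene symbol, and the remaining 5741 were not used. The columns were mapped to samples by title, and the number of arrays limits the precision.

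The lmFit and eBayes functions of limma 3.58.1 were used in R 4.3.3. P-values were adjusted over all clusters (Benjamini-Hochberg) and called at an adjusted p under 0.05. The siRNA effects were fitted within the 10 arrays of a fraction. Heavy minus light, and its change with a siRNA, were fitted on differences between arrays that share siRNA and replicate number. Each such pair was treated as 1 transfection, although no label says so. For siRNA-2 against control in heavy polysomes, the deviations of the 3 same-numbered pairs from their group means correlated (r = 0.189 to 0.426), so the fit with a replicate block is given beside that result. For siRNA-1 against control in heavy polysomes 2 of 3 pairs correlated over 0.1 (r = 0.0539 to 0.620), and calls with the block are also given. The block fit kept all 10 heavy arrays. The scripts were tested on simulated data. The alternatives were a replicate block for the siRNA effects, heavy and light arrays not paired, and repeated quantile normalization. Another required a mean log2 value of at least 5 (kept by 16144 clusters and all 33 measured genes). Others were moderation with trend and robust, array weights, 1 fit of all 20 arrays, replicate 1 left out and each array left out in turn. A 1.5-fold threshold at an unadjusted p under 0.05 was also tried.

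Values in every array are given for genes called in a siRNA comparison and for the 4 largest differences between heavy and light in each direction in control cells. Where under 2 genes passed, those with the 2 smallest p-values are named. Up to 4 genes per related list and comparison are named by smallest adjusted p. The genes and lists were chosen with earlier results of these data known. Promoters are RefSeq's. Protein sequence features were not analysed here.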

Additional observations from a re-analysis of the deposited data

Results flagged for a closer look

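In groups of 4 control arrays, 6 of 66 groups (33 genes in 2 fractions) held an array far from the other 3, where chance gives about 1 in 20. HSPA5 measured 10.29 in control light replicate 1 and 9.78 to 9.80 in the others. SDF2L1 measured 8.352 in control light replicate 3 and 8.107 to 8.122 in the others, and EDEM2 measured 7.668 in control light replicate 2 and 7.996 to 8.028 in the others. SSR3 measured 11.55 in control light replicate 3 and 11.23 to 11.28 in the others. In heavy polysomes HERPUD1 measured 9.257 in control replicate 1 and 9.537 to 9.546 in the others, and EIF2AK3 measured 7.255 in control replicate 4 and 7.521 to 7.55 in the others.

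The effects of the siRNAs differed from each other, by limma on siRNA-1 minus siRNA-2 (n = 3 and 3 arrays), for DNAJB9 by 1.43 in heavy polysomes (adjusted p = 0.000151) and 0.746 in light (0.00278). In light polysomes they also differed for EDEM2 by 0.664 (adjusted p = 0.00698), DNAJC3 by -0.633 (0.01005) and XBP1 by -0.726 (0.00165). All 5 calls held under the alternatives tried for them.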

How the results depend on the processing

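No direction of a called gene reversed. Of the 19, 20 and 19 calls of heavy against light with control siRNA, siRNA-1 and siRNA-2, 16, 17 and 13 held in all alternatives. When heavy and light arrays were not paired, 19, 19 and 21 genes were called, where 27.1%, 28.2% and 22.1% of all clusters passed. With siRNA-1 in heavy polysomes the 2 calls became 8 with a replicate block, where 16.3% of all clusters passed. They became 5 with array weights (13.1% of all clusters) and 4 in 1 fit of all 20 arrays (10.6%). Without replicate 1 in any group 1 gene was called (8.32%), and 1 to 4 when single arrays were left out (4.26% to 8.77%). At 1.5-fold with an unadjusted p 1 was called. With siRNA-1 in light polysomes the 3 calls became 2 with a replicate block (12.6% of all clusters) and 0 without replicate 1 (6.91%). They became 1 to 5 with single arrays left out (7.14% to 11.3%) and 0 at 1.5-fold. With siRNA-2 in heavy polysomes the 0 calls became 1, DNAJB9, with a replicate block (adjusted p = 0.011), array weights (0.0317), 1 fit of all arrays (0.0287) and at 1.5-fold. The block, the weights and the 1 fit called 2.75%, 1.44% and 0.881% of all clusters. Over all alternatives the adjusted p of DNAJB9 ranged from 0.011 to 0.498. Between the siRNAs in heavy polysomes the 1 call became 4 with a replicate block (15.5% of all clusters) and 4 with array weights (16.2%). With single arrays left out it became 1 to 2 (4.23% to 9.65%). With siRNA-2 in light polysomes, and for the change of heavy minus light, 0 of the 33 genes were called in every alternative. Over all clusters, a replicate block gave 3501 calls in place of 1912 with siRNA-1 in heavy polysomes, and 3319 in place of 1877 between the siRNAs. With siRNA-2 the calls ranged from 10 without siRNA-2 replicate 2 to 590 with a replicate block in heavy polysomes (89 as reported) and from 19 without siRNA-2 replicate 3 to 304 with array weights in light (88 as reported). The cause of these changes was not tested.

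The deviations of same-numbered arrays from their group means correlated over 0.1 in 3 of 3 pairs of control and siRNA-2 in heavy polysomes. They did so in 2 of 3 pairs of control and siRNA-1 in heavy (r = 0.0539 to 0.620) and in light polysomes (-0.00296 to 0.306). The same held for 2 of 3 pairs of control and siRNA-2 in light (0.016 to 0.404). The siRNAs share only 2 numbers, and of the pairs of heavy and light arrays 1 of 10 correlated over 0.1. Whether same-numbered arrays of different siRNAs share more than a number is not given by the labels, and the main fits used no replicate block. For siRNA-1 against control in heavy polysomes the calls depend on this choice, with 2 genes without the block and 8 with it. Repeated normalization moved the median of all clusters by at most 0.0323. With 3 or 4 arrays a group, differences that did not pass cannot be read as absent.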
